A study of Mus musculus with 4 samples.

Results

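The genes described here encode the proteins of the mitochondrial ribosome. They were taken as every row of the deposited count table whose Ensembl identifier maps to a protein-coding gene with a symbol starting Mrpl or Mrps and a number. The rule gave 78 genes of the 34745 rows, 49 with an Mrpl and 29 with an Mrps name, after 1 name ending in -ps was left out. RNA had been sequenced from primary macrophages grown from the bone marrow of C57BL/6 mice. Every library came from cells that were transfected with a small interfering RNA (siRNA) and treated with lipopolysaccharide (LPS), so no library shows untransfected or unstimulated cells. In 2 libraries the siRNA was Acly-E14, named for the ATP citrate lyase gene Acly, and in 2 it was a control. The labels number the libraries 1 and 2 in each group but do not say that they came from separate animals or cultures. The p-values therefore measure only the spread between these libraries, which may be technical.

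The mitochondrial ribosome, or mitoribosome, translates the few messenger RNAs of the mitochondrial genome, all of which encode core subunits of the respiratory chain and ATP synthase. Its ribosomal RNAs are encoded in the mitochondrion, whereas all of its proteins are encoded in the nucleus, made in the cytosol and imported. Some of these proteins descend from bacterial ribosomal proteins and are called conserved below, and the others are specific to mitochondria. Symbols do not always give the place of a protein: Mrps30 and Mrps18a carry small-subunit names, but their products sit in the large subunit, and Mrps36 encodes a component of the 2-oxoglutarate dehydrogenase complex. With these assigned from textbook nomenclature, 51 genes belonged to the large subunit, 30 of them conserved, and 26 to the small subunit, 16 of them conserved. Mrps18a and Mrps18b were counted as specific to mitochondria, although they derive from the same bacterial protein as Mrps18c, which was counted as conserved.

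The 4 libraries held between 21023197 and 21837806 counts. Acly itself had a level of 158 and 154 CPM (counts scaled to library size with TMM factors) in the control libraries, against 118 and 127 CPM with Acly-E14 siRNA. Its log2 change was -0.35 ± 0.060 (SE, edgeR quasi-likelihood test, adjusted p = 0.0086), and the adjusted p became 0.0583 without control library 1. All 10 macrophage markers were detected, with summed levels of 8392 to 9126 CPM in the control libraries and 8387 to 8927 in the Acly-E14 libraries. Of these, 5 were lower and 2 higher. Of 12 fibroblast and stroma markers 11 were higher, and their summed level was 821 and 1257 CPM against 2993 and 3700. Of 8 proliferation markers 6 were higher, with sums of 221 and 236 against 314 and 322 CPM. Kdr and Cdh5, the 2 endothelial markers tested, were lower, but unequally, with log2 changes from -1.45 to -0.45. The sums with Pecam1, which had too few counts to be tested, were 293 and 282 against 113 and 109 CPM. Of 3 neutrophil markers tested S100a8 and Csf3r were higher and S100a9 lower. The summed count of the 3 B cell markers was at most 4 in any library, and Ly6g and Mpo had at most 2 counts. The 5 T cell markers summed to 7 and 24 counts in the controls and to 19 and 16 in the Acly-E14 libraries. Of these, Cd3e and Cd8a had a count of 0 in every library, and Cd4, the only 1 tested, was not called (edgeR adjusted p = 0.724). These marker differences ran along with every comparison below, and their part in the results was not tested. In bulk RNA, fewer cells of a type and less RNA per cell cannot be told apart.

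Among 13108 genes tested, all 78 mitoribosomal protein genes passed the filter on low counts. A gene is called here when its Benjamini-Hochberg adjusted p in the edgeR quasi-likelihood test, taken over all genes tested, was under 0.05. By this criterion 8 mitoribosomal protein genes fell with the Acly-E14 siRNA, 1 rose and 69 were not called. Thus 11.5% were called, against 33.2% of all genes tested and 29.9% of the 7374 genes within the same range of mean level. In the lower direction the share was 10.3% against 15.9% of all genes, and in the higher direction 1.28% against 17.3%. At an unadjusted p under 0.05, 14 were lower and 3 higher, against 2886 lower and 3039 higher of the 13108 genes tested.

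The changes were small. The log2 changes ran from -0.59 to 0.44, and 3 of the 78 exceeded 0.5 in size, compared with 30.1% of all genes tested. The median size of the log2 change, regardless of sign, was 0.149 for the mitoribosomal protein genes and 0.289 for all genes. Replicates of these genes were as close as those of other genes: the median absolute log2 difference between the control libraries was 0.136, against 0.138 over all genes, and between the Acly-E14 libraries 0.121 against 0.122. The median signed change was -0.09 against 0.0027 for all genes, and over the 4 pairs of 1 library from each group it lay between -0.15 and -0.033. With TMM scaling 56 of the 78 changes were negative and 22 positive, but with scaling by library totals 39 were negative and 39 positive and the median was 0.000557, while the median of all genes moved to 0.0938. The change of scaling moves all genes by about the same amount. Both Acly-E14 libraries were below both control libraries for 27 of the 78 genes (34.6%), close to the 35.3% of all genes, and above both for 10 (12.8%, against 35.3%).

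**Figure D1:**
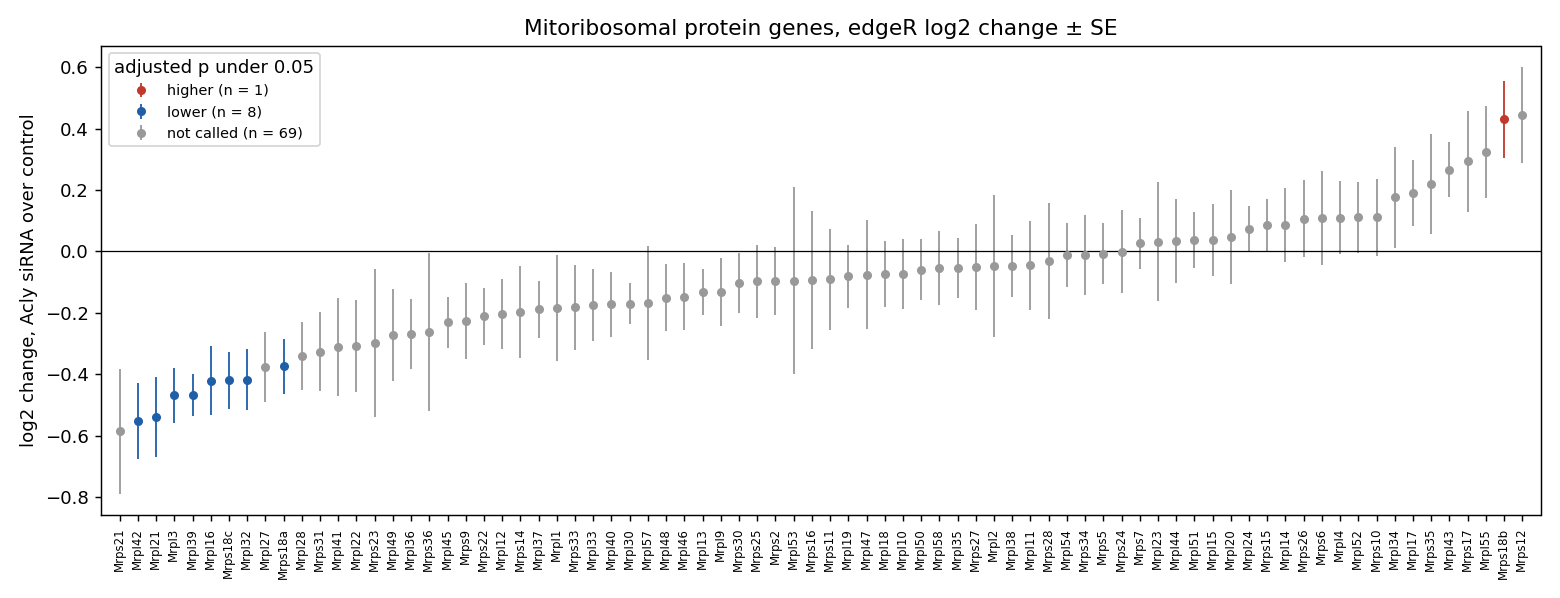
The log2 change of each of the 78 mitoribosomal protein genes (y axis, Acly siRNA over control, with its standard error) is plotted in rank order (x axis, gene symbols). Blue points are the 8 genes called lower, the red point is the 1 gene called higher, and 69 grey points were not called, Mrps21 and Mrps12 at the ends among them.

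The ranked plot shows that the calls did not simply follow the size of the change. Mrps21, a small-subunit protein, had the largest negative change, with 20.5 and 18.8 CPM in the control libraries and 15.9 and 10.3 CPM in the Acly-E14 libraries (log2 -0.59 ± 0.20, edgeR adjusted p = 0.0737). Its groups did not overlap, but the second Acly-E14 library lay well under the first. Mrps12, the homologue of a bacterial decoding-site protein, had the largest positive change, from 6.36 and 5.38 CPM to 8.33 and 7.63 CPM (log2 0.44 ± 0.16, adjusted p = 0.0756). Mrps23 showed the widest spread within the Acly-E14 group, with 22.1 and 18.5 CPM in the controls and 20.6 and 12.4 CPM with the siRNA. Only its second Acly-E14 library was low, and the groups overlapped. Mrpl27 was the uncalled gene with the smallest adjusted p, 0.0511, at 25.1 and 25.5 CPM in the controls against 21.3 and 17.7 CPM. These 4 genes were singled out after their values were seen.

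Of the 51 large-subunit genes 7 were lower (13.7%, near the 15.9% of all genes tested) and the other 44 were not called, with a median log2 change of -0.10. Conserved proteins made up 4 of the 7, of 30 tested, and proteins counted as mitochondria-specific 3, of 21 tested, Mrps18a among them. At an unadjusted p under 0.05, 11 large-subunit genes were lower and 1 higher. Of the 13108 genes tested, 2886 were lower and 3039 higher at this threshold.

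Among the conserved large-subunit genes, Mrpl3 encodes a protein that reaches toward the peptidyl transferase centre (ENSMUSG00000032563, chr9:105053239-105079888, plus strand, coordinates here and below from GENCODE vM21 on GRCm38). Controls gave 27.0 and 29.0 CPM, and Acly-E14 libraries 19.9 and 20.6 CPM (log2 -0.47 ± 0.089, edgeR adjusted p = 0.0119). The groups were well separated. Mrpl21 (ENSMUSG00000024829, chr19:3282901-3292837, plus strand), the bL21 homologue, was at 16.7 and 20.6 against 12.8 and 13.0 CPM (log2 -0.54 ± 0.13, adjusted p = 0.0253). The Acly-E14 libraries were nearly equal, and the spread lay in the controls. Mrpl16 (ENSMUSG00000024683, chr19:11770391-11774960, plus strand), whose bacterial homologue contacts the aminoacyl-tRNA site, was at 15.6 and 14.4 against 10.8 and 11.7 CPM (log2 -0.42 ± 0.11, adjusted p = 0.0348). Mrpl32 (ENSMUSG00000015672, chr13:14608184-14613165, minus strand), a protein matured by the mitochondrial m-AAA protease, was at 23.5 and 22.7 against 16.3 and 18.3 CPM (log2 -0.42 ± 0.099, adjusted p = 0.0245). In neither of these genes did the groups overlap. Leaving out single libraries ended most of these calls. Mrpl16 lost its call whichever library was omitted (adjusted p 0.0644 to 0.147). Mrpl3 lost it without control library 2 (0.0529) or Acly-E14 library 1 (0.0568). Mrpl21 lost it without control library 2 (0.0882), Acly-E14 library 1 (0.0897) or Acly-E14 library 2 (0.0905). For Mrpl32 it was lost on omitting either control (0.107 without the first, 0.0685 without the second) or the first Acly-E14 library (0.11).

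Mrpl39, a mitochondria-specific large-subunit protein related in sequence to threonyl-tRNA synthetase, had the smallest adjusted p of the 78 genes (ENSMUSG00000022889, chr16:84717576-84735742, minus strand). Its control levels were 51.1 and 50.8 CPM and its Acly-E14 levels 37.4 and 36.2 CPM (log2 -0.47 ± 0.068, edgeR adjusted p = 0.00544). It had counts of 1028 and 1086 in the controls, the highest of these genes in control library 2 and level with Mrpl30 in control library 1, and its replicates differed far less than the groups. Of the 9 calls it was the only 1 kept under all 11 alternatives tried, the omission of each single library among them. Of these alternatives, the looser threshold of an adjusted p under 0.1 could not end a call. Mrpl42 (ENSMUSG00000062981, chr10:95480805-95501940, minus strand), also specific to mitochondria, was at 12.8 and 11.5 against 8.42 and 8.13 CPM (log2 -0.55 ± 0.12, adjusted p = 0.0205). Its groups did not overlap, and its call was lost without control library 1 (0.0828), Acly-E14 library 1 (0.0712) or Acly-E14 library 2 (0.1).

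**Figure D2:**
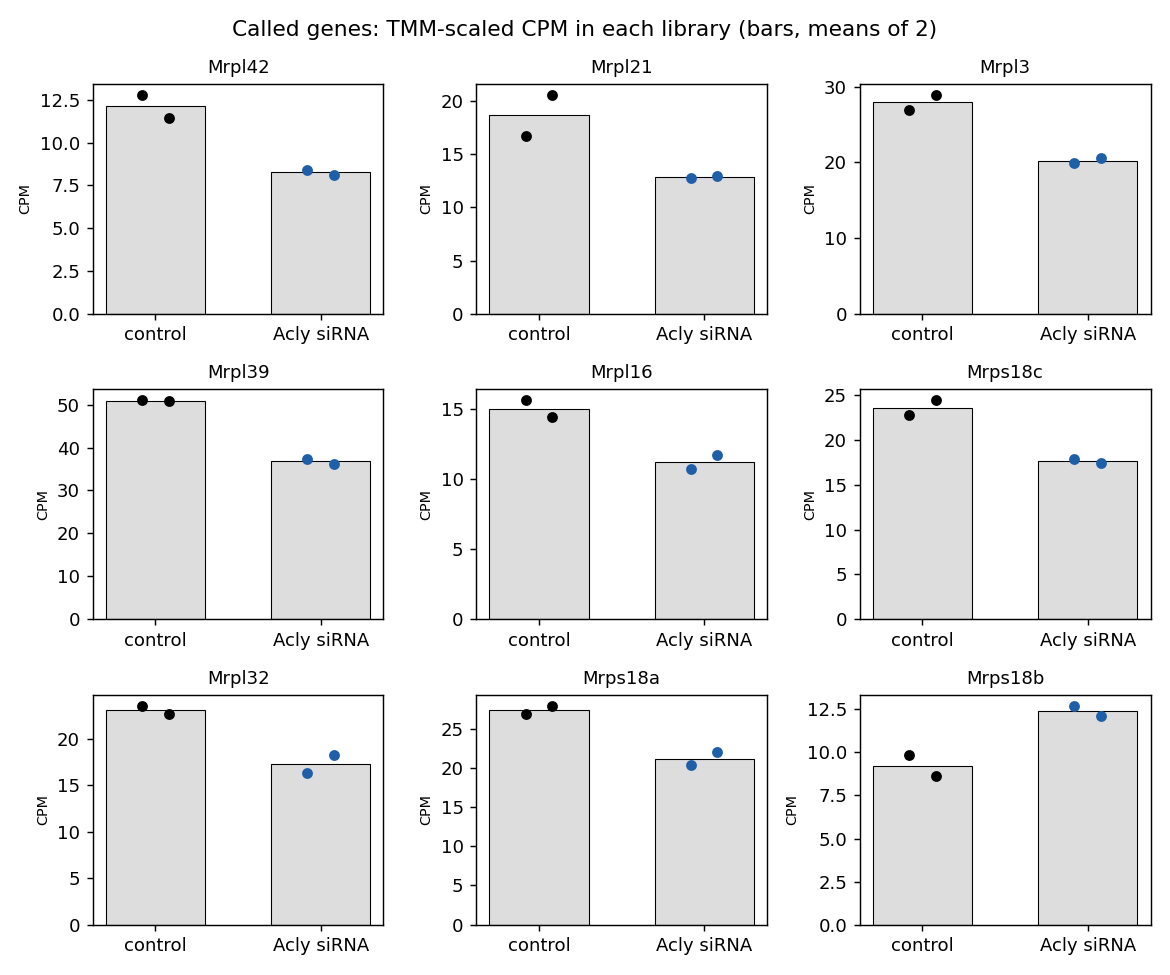
Each panel shows 1 of the 9 called genes, with the TMM-scaled CPM of each library as a point (y axis, from 0) and the mean of the 2 libraries of a group as a bar. In 8 panels both Acly siRNA points lie under both control points, and for Mrps18b both lie above.

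In the small subunit 1 gene was lower (3.85%), 1 was higher (3.85%, against 17.3% of all genes) and 24 of the 26 were not called, with a median log2 change of -0.04. At an unadjusted p under 0.05, 3 were lower and 2 higher, beside 2886 lower and 3039 higher of all 13108 genes tested. Both calls were paralogues of 1 family. Mrps18a, Mrps18b and Mrps18c all derive from the bacterial S18 protein. The Mrps18c product takes the S18 place in the small subunit, that of Mrps18b occupies another site in the small subunit, and that of Mrps18a lies in the large subunit.

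The 3 paralogues were all called, and not in the same direction. Mrps18a (ENSMUSG00000023967, chr17:46110986-46128910, plus strand) had 26.9 and 27.9 CPM in control cells but 20.3 and 22.0 CPM after Acly-E14 siRNA (log2 -0.37 ± 0.090, edgeR adjusted p = 0.0249). Mrps18c (ENSMUSG00000016833, chr5:100798627-100804471, plus strand) was at 22.8 and 24.5 against 17.8 and 17.4 CPM (log2 -0.42 ± 0.092, adjusted p = 0.0187). Mrps18b (ENSMUSG00000024436, chr17:35910379-35916389, minus strand) was at 9.84 and 8.61 against 12.7 and 12.1 CPM (log2 0.43 ± 0.12, adjusted p = 0.0448). None of the 3 had overlapping groups, and Mrps18b had the higher values in the Acly-E14 libraries while the other two had the lower. Mrps18b made up 16.5% and 14.1% of the family's summed CPM in the controls and 25.0% and 23.5% in the Acly-E14 libraries. The ratio of Mrps18b to Mrps18a was 0.366 and 0.308 in the controls and 0.626 and 0.551 with the siRNA, and that of Mrps18b to Mrps18c 0.432 and 0.352 against 0.713 and 0.694. The ratio of Mrps18c to Mrps18a overlapped between the groups (0.847 and 0.876 against 0.878 and 0.794). For each of the first 2 ratios the exact two-sided permutation test gave p = 0.333, the smallest that 2 against 2 libraries allow. That result was fixed by the non-overlapping groups of the 3 genes, so the share and the ratios restate their calls and add no support. CPM is not divided by length, so these ratios compare libraries and not the level of 1 paralogue with another. Omitting any single library ended each of the 3 calls, with adjusted p of 0.0613 to 0.117 for Mrps18a, 0.0693 to 0.168 for Mrps18b and 0.0551 to 0.0851 for Mrps18c. For Mrps18b, 638 exon bases (30.5%) are shared with Gm16279, annotated as antisense to it, and for Mrps18c 250 bases (23.2%) with Gm43511 on the same strand. Whether the counting used strand is not given in the sources used here, so reads in those bases cannot be assigned with certainty.

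**Figure D3:**
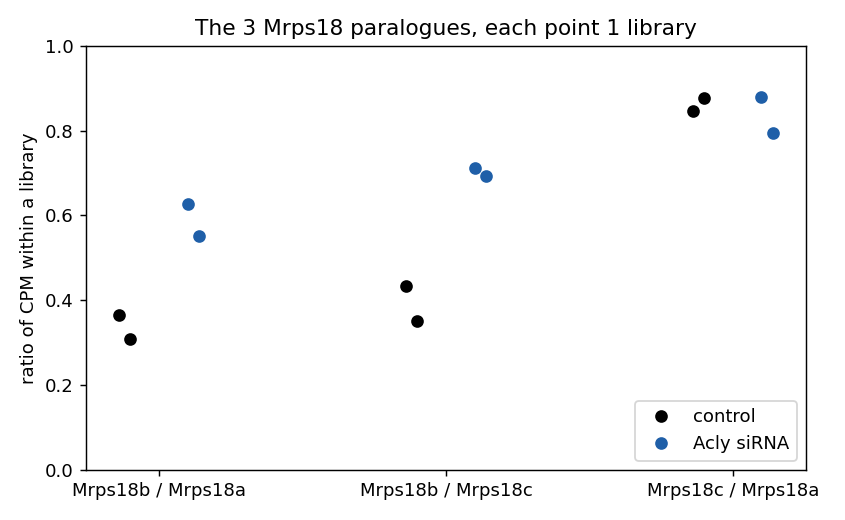
Ratios of the TMM-scaled CPM of the Mrps18 paralogues within each library (y axis, from 0), with 1 point per library, black for control and blue for Acly siRNA. Both ratios with Mrps18b above the line are higher in the Acly siRNA libraries (0.551 to 0.713) than in the controls (0.308 to 0.432), and the ratio of Mrps18c to Mrps18a overlaps.

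The summed levels gave the same order. Summed over all 78 genes, control libraries held 1341 and 1286 CPM and Acly-E14 libraries 1206 and 1211 CPM, a ratio of means of 0.920 (exact permutation p = 0.333, two-sided, the smallest possible). As a share of raw counts the difference was smaller, 0.128% and 0.126% against 0.124% and 0.126%, a ratio of 0.980. The large-subunit sum was 983 and 945 CPM against 875 and 883 CPM, a ratio of 0.911, and the small-subunit sum 356 and 338 CPM against 330 and 325 CPM, a ratio of 0.944. As a share of raw counts the small-subunit ratio was 1.01, so its direction depended on the scaling. The ratio of large to small subunit within a library was 2.76 and 2.80 in the controls against 2.65 and 2.71. That ratio does not depend on library scaling, and its groups did not overlap. It was not tested, and with 2 against 2 libraries an exact permutation p cannot fall under 0.333.

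The transcripts that this ribosome translates differed by more than the transcripts of its proteins. The 13 mRNAs of the mitochondrial genome summed to 18978 and 19113 CPM in the controls and to 13845 and 13044 CPM in the Acly-E14 libraries, a ratio of means of 0.706 (exact permutation p = 0.333). Of the 13, 11 were called lower, against 15.9% of all genes tested, with a median log2 change of -0.45. Of the 11, 8 kept the call whichever library was omitted. The exceptions were mt-Nd1 without control library 2 (adjusted p = 0.0598), mt-Nd3 without control library 1 (0.0635), and mt-Co3 without either control or Acly-E14 library 1 (up to 0.0651). For 1 unit of mitoribosomal protein CPM there were 14.2 and 14.9 units of mitochondrial mRNA CPM in the controls and 11.5 and 10.8 with the siRNA. Counts of 2 of these mRNAs stood apart: mt-Nd4l, a complex I subunit, had 5654 and 5814 counts in the controls and 1 in each Acly-E14 library, and mt-Atp6, an ATP synthase subunit, had 39149, 40771 and 30774 counts but 5095 in Acly-E14 library 2. Without these 2 genes, a choice made after seeing the data, the ratio of means was 0.750 and the quotients were 12.5 and 13.2 against 10.3 and 10.6. The mitochondrial ribosomal RNAs mt-Rnr1 and mt-Rnr2 were not analysed here.

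**Figure D4:**
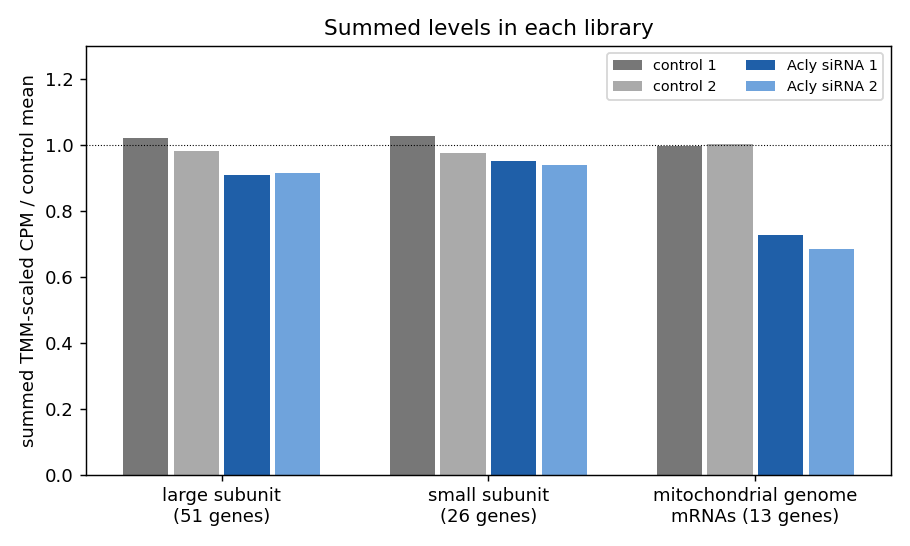
Summed TMM-scaled CPM of the large-subunit genes, the small-subunit genes and the mRNAs of the mitochondrial genome (x axis), each divided by its control mean (y axis, from 0), with 1 bar per library. The Acly siRNA bars are lower in each set, by the most for the mitochondrial mRNAs (ratio of means 0.706, against 0.911 and 0.944).

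Lists of the other genes of mitochondrial gene expression held calls in both directions, as the plot of changes by role shows. For comparison with the counts below, 17.3% of all genes tested were higher and 15.9% lower. Of the 5 mitoribosomal proteins with other names (Dap3, Ptcd3, Chchd1, Aurkaip1 and Gadd45gip1), edgeR called no gene, and 1 was lower at an unadjusted p under 0.05: Dap3, a small-subunit GTP-binding protein, was at 20.5 and 18.3 against 15.2 and 16.3 CPM (log2 -0.30, adjusted p = 0.0786). Of 29 assembly factors 2 were higher and 2 lower, with a median log2 change of 0.05. C1qbp, a matrix protein bound by the mitoribosome, rose from 23.5 and 25.3 to 30.7 and 32.9 CPM (log2 0.38, adjusted p = 0.0226), and Nsun4, which partners Mterf4 in large-subunit assembly, from 3.78 and 4.44 to 6.31 and 6.53 CPM (log2 0.64, adjusted p = 0.033). Dhx30, a helicase of large-subunit assembly, fell from 39.1 and 38.3 to 30.8 and 29.8 CPM (log2 -0.35, adjusted p = 0.0173). Eral1, a chaperone of the small-subunit ribosomal RNA, fell from 16.5 and 17.2 to 12.9 and 13.5 CPM (log2 -0.35, adjusted p = 0.0396). Of these 4 calls, Dhx30 and Eral1 lost theirs whichever library was omitted (adjusted p 0.0502 to 0.157), and C1qbp and Nsun4 lost theirs without control library 1, Acly-E14 library 1 or Acly-E14 library 2 (up to 0.155).

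Of 16 translation factors 1 was lower: Oxa1l, which inserts new chains into the inner membrane beside the ribosome, went from 30.9 and 27.1 to 21.4 and 21.7 CPM (log2 -0.43, adjusted p = 0.0227). Of 20 aminoacyl-tRNA synthetases and related enzymes 1 was higher: Vars2, the mitochondrial valyl-tRNA synthetase, rose from 1.54 and 1.78 to 3.20 and 4.80 CPM (log2 1.27, adjusted p = 0.0214). Of 14 genes of mitochondrial transcription and DNA maintenance 2 were lower. Ssbp1, the single-stranded DNA-binding protein of the nucleoid, fell from 32.5 and 34.4 to 20.2 and 21.2 CPM (log2 -0.69, adjusted p = 0.00343), a change larger than that of any mitoribosomal protein gene. The other was Mterf1a, a transcription terminator, at 2.29 and 2.67 against 1.37 and 1.32 CPM (log2 -0.87, adjusted p = 0.0447). Of 20 genes of mitochondrial RNA processing and decay 2 were higher and 3 lower, beside 17.3% and 15.9% of all genes tested. The lower genes were Grsf1, an RNA granule protein (53.9 and 55.8 against 37.2 and 36.9 CPM, log2 -0.57, adjusted p = 0.00307), Pnpt1, the mitochondrial polynucleotide phosphorylase (log2 -0.37, adjusted p = 0.0109), and Mtpap, the poly(A) polymerase (log2 -0.39, adjusted p = 0.0293). The higher genes were Rexo2, which degrades short RNA fragments (log2 0.48, adjusted p = 0.0297), and Trmt5, a tRNA methyltransferase (log2 0.42, adjusted p = 0.0412). Ssbp1 (adjusted p 0.0169 to 0.0222) and Grsf1 (0.0168 to 0.0219) kept their calls whichever library was omitted. Mterf1a, Mtpap and Trmt5 kept theirs in none of the 4 omissions (0.0581 to 0.202). Pnpt1 lost its call without either control (up to 0.0563), Oxa1l without control library 1 or either Acly-E14 library (up to 0.101), and Vars2 (up to 0.133) and Rexo2 (up to 0.129) without either control or Acly-E14 library 2.

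**Figure D5:**
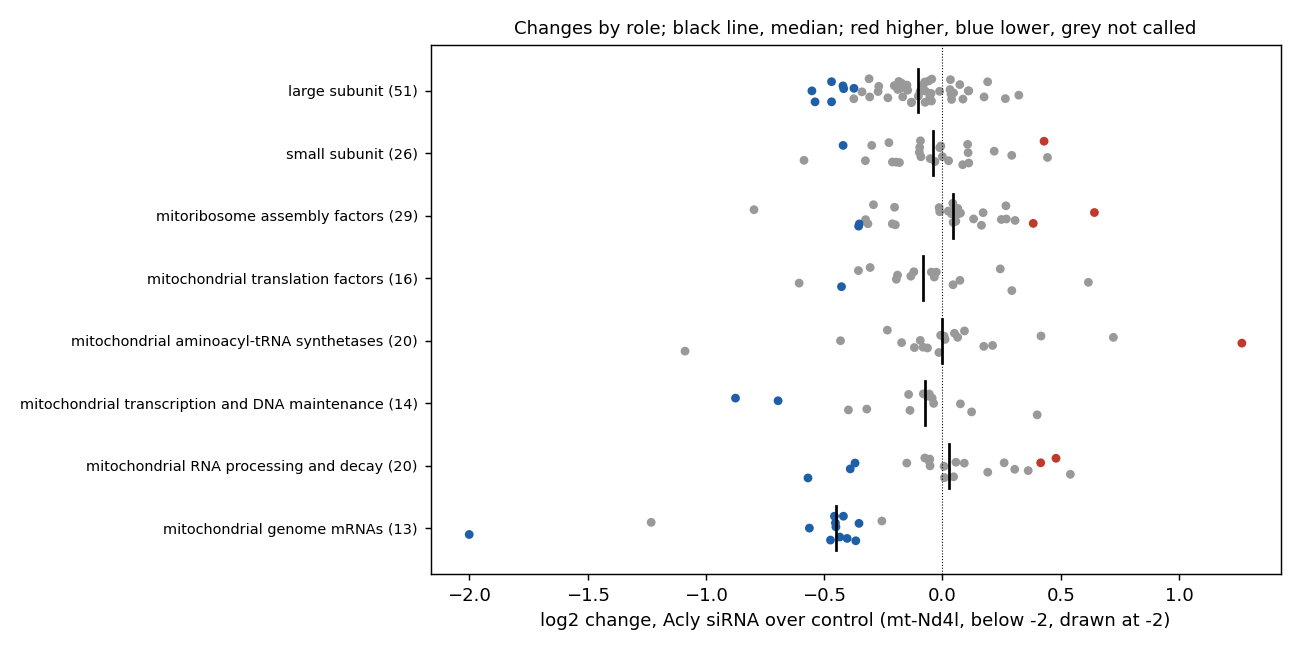
Each point is the log2 change of 1 gene (x axis, Acly siRNA over control) within its role (y axis, number of genes tested in brackets), red if called higher, blue if called lower, and the black line is the median of the role. The mitochondrial genome mRNAs sit to the left with a median of -0.45, while the medians of the nuclear-encoded roles drawn lie between -0.10 and 0.05 (the 5 mitoribosomal proteins with other names, median -0.19, are not drawn), and mt-Nd4l is drawn at the left edge.

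Genes that encode regulators of mitochondrial biogenesis did not move as a group. Myc rose from 11.4 and 12.9 to 22.7 and 27.6 CPM (log2 1.05 ± 0.13, edgeR adjusted p = 0.00364). Gabpa, the DNA-binding subunit of the ETS-family factor GABP, fell from 81.7 and 83.9 to 65.5 and 72.3 CPM (log2 -0.27 ± 0.070, adjusted p = 0.0338). Nrf1, a factor named for its sites in respiratory genes, was at 14.5 and 14.2 against 13.3 and 13.5 CPM (adjusted p = 0.497), and Yy1 at 42.1 and 48.1 against 48.9 and 48.0 CPM (adjusted p = 0.40). Neither was called. Esrra, a nuclear receptor that works with PGC-1 coactivators, was at 29.4 and 29.4 against 25.6 and 20.6 CPM (adjusted p = 0.0734). The coactivator genes Pprc1 (log2 0.12, adjusted p = 0.271) and Ppargc1b (log2 -0.34, adjusted p = 0.491) were not called, and Ppargc1a did not pass the filter on low counts. Omitting single libraries left the Myc call in place (adjusted p 0.00655 to 0.0314) and ended the Gabpa call each time (0.0542 to 0.159).

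Binding sites for these factors are a known feature of nuclear genes for mitochondrial proteins, so the letters of their cores were searched in the RefSeq promoter table (GRCm38.p6, 250 bases before to 50 after each gene start), which held 69 of the 78 genes. The sites below are all of the matches to the first 2 cores in the 250 bases before the start of the 9 called genes, each with 10 bases on either side, shown because they are the letters on which the called genes can be compared. Capitals mark the match, either CCGGAAG (ETS family) or GCATGCG (NRF1), on either strand, and both strands of the NRF1 core where they overlap.
Mrpl39 (lower), chr16:84735351-84735378, minus strand: aggagaggcgCGCATGCGcccccgcgtg
Mrpl32 (lower), chr13:14613106-14613133, minus strand: ttgacccttgCGCATGCGcaagaggggc
Mrpl32 (lower), chr13:14613086-14613112, minus strand: gaggggcctgCGCATGCtctgagcgag
Mrpl32 (lower), chr13:14613043-14613070, minus strand: gcggacttaaCGCATGCGctcagcccgc
Mrps18b (higher), chr17:35916647-35916674, minus strand: aacggcccgaCGCATGCGcactgggagc
Mrps18a (lower), chr17:46110968-46110994, plus strand: cacccctgctCCGGAAGcggaagtgca
Mrps18c (lower), chr5:100798593-100798619, plus strand: ggtcacgtgaCTTCCGGcccgggaagc
Mrpl3 (lower), chr9:105053239-105053265, plus strand: gagaaacggaCCGGAAGtggcccggct
The NRF1 core thus stands before genes called in both directions, Mrpl39 and Mrpl32 lower and Mrps18b higher, and the ETS core before Mrps18a, Mrps18c and Mrpl3, all lower. For Mrpl32 the 3 matches lie within 86 bases of the start. Starts here are those of RefSeq. By the GENCODE starts, the matches of Mrpl39, Mrpl32 and Mrpl3 fall inside the gene, 374 bases past the start for Mrpl39, 42, 63 and 105 for Mrpl32 and 10 for Mrpl3, and those of the 3 Mrps18 genes lie before it. The Mrps18b match, however, lies past the start of Ppp1r10, a neighbour on the opposite strand that starts 45 bases from Mrps18b. All 250 bases searched before Mrps18b are annotated as exon.

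Over the whole 300-base window the ETS core was in 26 of the 69 promoters (37.7%), against 9.93% of all promoters in the table and 20.1% of those of genes tested. The NRF1 core was in 8 (11.6%, against 4.01% and 7.22%). ATGGCGG, the YY1 core, was in 13 (18.8%, against 4.69% and 9.44%), but in only 1 within the 250 bases before the start. The median GC content of the member promoters, 58.4%, was near that of the promoters of tested genes, 59.6%, and above that of all promoters, 52.4%. Of the 18 genes with an ETS core before the start 3 were lower and the other 15 not called, with a median log2 change of -0.08, and the 51 without it had a median of -0.13, with 5 lower and 1 higher. Of the 8 with an NRF1 core, 2 fell and 1 rose, with a median change of -0.15. Of the 61 without it 6 fell and 0 rose, with a median of -0.10. Over all genes tested 33.2% were called. A match is a description of letters and not evidence of a bound site.

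Many of these genes share a start region with a neighbour. For 33 of the 78 genes (42.3%) the start of a protein-coding gene on the opposite strand lay within 1000 bases, against 16.0% of the 12285 protein-coding genes tested, and for 22 within 300 bases. Of the 33 neighbours 5 were higher, 4 lower, 21 not called and 3 not tested. Over all genes tested 15.9% were lower and 17.3% higher. Mrpl46 and Mrps11 are each other's neighbour and are both counted among the 33. In 1 pair both genes were called lower: Mrpl32 and Psma2, a proteasome subunit, whose starts lie 75 bases apart and which was at 153 and 151 against 133 and 126 CPM (log2 -0.23, adjusted p = 0.0264). In 1 pair the calls were opposite: beside Mrps18b, Ppp1r10, a regulatory subunit of protein phosphatase 1 that starts 45 bases away, fell from 65.3 and 60.2 to 48.0 and 47.2 CPM (log2 -0.40, adjusted p = 0.00959). The neighbours called higher included Ncapd2, a condensin subunit beside Mrpl51 (log2 0.87, adjusted p = 0.0117), and Ska3, a spindle and kinetochore protein beside Mrpl57 (log2 1.37, adjusted p = 0.0216), where the mitoribosomal genes had log2 changes of 0.04 and -0.17. These 2 pairs were chosen after their values were seen, as were the next 2. Gga3, beside Mrps7, was higher (log2 0.52, adjusted p = 0.0101), and Mitd1, beside Mrpl30, was lower (log2 -0.41, adjusted p = 0.00717). Gga3 and Mitd1 kept their calls whichever library was omitted. Psma2 lost its call whichever library was omitted (adjusted p 0.0564 to 0.141), Ppp1r10 without control library 1 or Acly-E14 library 2 (up to 0.058), Ncapd2 without Acly-E14 library 2 (0.0576), and Ska3 without control library 1 or either Acly-E14 library (up to 0.142). The 78 genes lay on 17 chromosomes, with 11 on chromosome 11.

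Levels between genes can be compared only per length. FPKM were computed from the counts and the gene lengths behind the deposited FPKM. No deposited FPKM were used for Acly-E14 library 2. Averaged over the 4 libraries, the levels ran from 0.564 to 26.2 FPKM, a range of 46.4-fold for proteins that, with few exceptions, enter the particle in single copies. The highest were Mrpl32 (26.2 FPKM), Mrpl43 (18.3), Mrpl4 (15.7), Mrpl54 (15.6) and Mrpl39 (15.5), all of the large subunit. In the controls alone, an order added after seeing the data, Mrpl32 also came first, but Mrpl42 (18.4 and 16.8 FPKM) and Mrpl39 (17.4 and 17.7 FPKM) came next and Mrpl4 was sixth. The lowest were Mrps35 (0.564 FPKM), Mrps17 (0.740), Mrps36 (0.809), Mrps10 (0.912) and Mrpl58 (1.22), the last a peptidyl-tRNA hydrolase built into the large subunit. In the controls alone Mrpl15 (1.23 and 1.10 FPKM) took the place of Mrpl58 among the lowest 5. Of the 10 genes named from the order over 4 libraries, only Mrpl32 and Mrpl39 were called. Mrpl43 was at 15.5 and 16.6 FPKM in the controls against 19.9 and 21.3 with the siRNA (edgeR adjusted p of its counts 0.0682), with groups that did not overlap. Mrpl4 (15.3 and 13.9 against 18.0 and 15.5 FPKM) and Mrpl54 (14.8 and 15.5 against 16.9 and 15.1 FPKM) had overlapping groups, and in the controls the levels of Mrpl43, Mrpl4 and Mrpl54 lay within 13.9 to 16.6 FPKM, too close to order. Among the lowest, Mrps35 was at 0.463 and 0.545 against 0.626 and 0.623 FPKM (adjusted p = 0.345), and Mrps17 at 0.719 and 0.566 against 0.881 and 0.795 FPKM (adjusted p = 0.219).

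This order rests on the gene length behind each FPKM, which differed from the merged exon length in GENCODE vM21 by a factor of 0.154 to 2.73 and equalled it for 2 genes. The annotation behind it is not given in the sources used here, and for 9 genes it exceeded the whole GENCODE span of the gene, Mrps17 (13836 against 7060 bases) among them. With the merged exon length instead, a choice made after seeing the data, Mrpl32 moved from rank 1 to rank 51 of 78 and Mrpl42 from 6 to 62, while Mrpl27 and Mrps21 came first and Mrps35 stayed last. The 2 orders shared 4 of their top 10 genes, with a Spearman correlation of 0.748 across the 78 genes, which use the same counts. The length cancels in a comparison of 1 gene between libraries. Counts behind single values ranged from 37 (95% exact Poisson interval 26.1 to 51.0, for Mrpl53) to 1086 (1020 to 1150, for Mrpl39), intervals that cover counting error only.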

How the data were processed

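The 4 libraries were grouped by the treatment in their labels. The authors deposited 1 table with raw counts per gene, whole numbers without normalization per the file headers, and FPKM values. The 49103 deposited FPKM values above 0 that were compared equalled those computed from the counts and a whole-number gene length, within a relative tolerance of 0.001. The length of each gene was itself derived from these counts and FPKM values. The match therefore shows only that the FPKM of a gene were proportional to its counts per library total. 1 further value column carried no replicate number and was not used. FPKM of Acly-E14 library 2 were therefore computed only from its counts and these lengths. HISAT2, StringTie 1.3.0, edgeR and the build mm10 are named in the submitters' processing notes. For their roles, the annotation and any use of strand in counting: not given in the sources used here. Both a stranded total RNA kit and mRNA capture beads are named, per the labels' protocols.

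Gene symbols were matched for 34267 of 34745 identifiers. The counts went into the edgeR package (4.0.16, under R 4.3.3; filterByExpr with a minimum count of 10, TMM factors, quasi-likelihood F test, no covariate, Benjamini-Hochberg adjustment over all genes tested). The fit was tested on simulated data. CPM values were scaled by TMM. Summed levels and the ratios of the Mrps18 paralogues were compared by exact two-sided permutation over libraries. Alternatives were RLE factors, library totals, no filter, a replicate term, DESeq2 1.42.0, limma 3.58.1 on log2(FPKM + 1), an adjusted p under 0.1 and the omission of each library. Subunits were assigned from textbook nomenclature. Promoters came from RefSeq (GRCm38.p6), positions from GENCODE vM21.

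Named genes were Acly, all called mitoribosomal genes, the 5 highest and 5 lowest by FPKM, the Mrps18 paralogues, up to 4 genes of smallest p per list and the biogenesis regulators. Others are marked in the text as chosen after their values were seen. The members and lists were chosen with earlier results of these data known.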

Additional observations from a re-analysis of the deposited data

How the results depend on the processing

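The count of mitoribosomal protein genes called lower, 8, was 4 with library totals, 5 with limma on log2(FPKM + 1) and 13 at an adjusted p under 0.1, and 7 to 10 with no filter, RLE factors or DESeq2. The count called higher, 1, was 3 with library totals, 3 with limma, 3 at an adjusted p under 0.1, 0 with no filter and 0 with DESeq2. With single libraries left out, 2 to 4 were lower and 0 to 0 higher, and a lone library is then assumed to vary like the pair of the other group. The median log2 change was 0.000557 with library totals and 0.00266 with limma, and negative under every other alternative run (-0.148 to -0.0432). No called mitoribosomal gene changed sign under any of them. For Acly, the log2 change was -0.402 to -0.302 with single libraries left out and lost its call without control library 1 (log2 -0.338, adjusted p = 0.0583). The cause of these shifts was not tested. Of all genes called, 52.0% were higher with TMM factors (2264 higher, 2090 lower), 65.8% with library totals (2776 higher, 1446 lower) and 65.8% with limma (2669 higher, 1389 lower). The 4354 genes called overall became 2157 without control library 1 and 2088 without Acly-E14 library 2. With a replicate block, 10 mitoribosomal genes were lower and 1 higher, and 4896 genes were called in all. Same-numbered libraries share only a number. Across genes, the deviations of the 2 libraries numbered 1 from their group means had a correlation of 0.144. Depth limits the weakest genes most: the standard error of the log2 change reached 0.30 at counts of 37 to 54.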
